A study of Mus musculus with 4 samples.

Results

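The genes described here are 10 imprinted genes, H19, Igf2, Dlk1, Meg3, Peg3, Peg10, Plagl1, Cdkn1c, Grb10 and Mest, well known for their part in prenatal growth. They were chosen by symbol, and all 10 were found among the 31054 genes of the count matrices. The study collected single intestinal cells from Bmi1-GFP mice, a reporter strain in which cells that express Bmi1, a Polycomb group gene used as a marker of intestinal stem cells, carry a green fluorescent protein. Cells were sorted by flow cytometry, and 4 groups had 1 library each, from embryos at day 12.5 of gestation (E12.5) or at day 17.5 (E17.5), from untreated adults, and from adults after irradiation. All 4 groups carry the reporter and were labelled as intestinal epithelial cells, and the labels give neither the age of the adults, the dose of irradiation, the time after it, nor the number of animals. With 1 library a group, stage or irradiation and library cannot be told apart, no p-value was computed, and every interval below covers counting error only.

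Imprinted genes are expressed from 1 of the parental copies, marked by DNA methylation set in the germ line. H19 and Meg3 are long noncoding RNAs expressed from the maternal copy, and Cdkn1c, an inhibitor of cyclin-dependent kinases, is maternal as well. Igf2 (a secreted growth factor), Dlk1 (a transmembrane protein related to Notch ligands), Peg3 and Plagl1 (zinc finger proteins), Peg10 (derived from a retrotransposon) and Mest (a hydrolase-like protein) are paternal. Grb10 is an adaptor that inhibits signalling by the insulin and IGF receptors, and is maternal in most tissues. Most of these genes are abundant in the fetus and decline after birth in many organs. A count of RNA molecules does not tell which parental copy they came from.

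Positions are given on the mouse genome GRCm38. H19 (chr7:142575529-142578143, minus strand) and Igf2 (chr7:142650766-142666816, minus strand) are neighbours, and Cdkn1c (chr7:143458339-143461050, minus strand) lies on the same chromosome. Dlk1 (chr12:109452823-109463336) and Meg3 (chr12:109541001-109571726) are neighbours on the plus strand. Peg3 is at chr7:6703892-6730431 on the minus strand, Grb10 at chr11:11930508-12038683 on the minus strand, and Plagl1 at chr10:13060504-13131694 on the plus strand. Peg10 (chr6:4747306-4760517) and Mest (chr6:30723547-30748465) are on the plus strand of chromosome 6.

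H19 and Meg3 RNAs also contain microRNAs, shown here because the results turn on these host transcripts. RefSeq (GRCm38.p6) places 5 mature microRNAs in exons of these genes on the strand of the host, 4 of which are printed here: miR-675-5p at chr7:142577112-142577133, miR-675-3p at chr7:142577078-142577099, miR-770-5p at chr12:109563710-109563731 and miR-770-3p at chr12:109563744-109563765. The fifth is miR-1906, in Meg3 at chr12:109544588-109544609. Capitals mark the seed, bases 2 to 8, which pairs with target RNAs.
mmu-miR-675-5p: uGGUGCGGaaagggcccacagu
mmu-miR-675-3p: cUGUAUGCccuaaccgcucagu
mmu-miR-770-5p: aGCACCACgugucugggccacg
mmu-miR-770-3p: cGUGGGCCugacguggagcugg
No seed was shared between any of the 9 mature microRNAs found in the members, which include miR-335 in an intron of Mest and miR-483 in an intron of Igf2. The libraries counted polyadenylated host transcripts, and mature microRNAs were not measured.

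Promoters of Peg3 and Meg3 are shown because both genes were abundant at E12.5 and stayed high at E17.5 in endocrine cells. Each line is the 250 bases before a RefSeq start, read along the gene's strand, at chr7:6730420-6730669 (minus strand) and chr12:109540746-109540995 (plus strand). Capitals mark GGGGCCCC, a palindrome taken here as the sequence bound by Plagl1.
Peg3: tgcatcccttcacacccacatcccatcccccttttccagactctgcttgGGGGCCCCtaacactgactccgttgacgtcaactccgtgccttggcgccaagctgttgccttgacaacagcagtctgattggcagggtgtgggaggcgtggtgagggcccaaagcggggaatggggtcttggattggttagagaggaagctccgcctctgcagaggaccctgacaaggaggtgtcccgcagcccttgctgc
Meg3: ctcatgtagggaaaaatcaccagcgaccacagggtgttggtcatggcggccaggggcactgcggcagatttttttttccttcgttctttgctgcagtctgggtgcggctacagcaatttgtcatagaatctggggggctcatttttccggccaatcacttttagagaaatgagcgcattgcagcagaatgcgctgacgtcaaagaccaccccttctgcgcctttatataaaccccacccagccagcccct
GGGGCCCC was searched in windows of 300 bases, from 250 before to 50 after the start, and was found in 354 of 32851 windows (1.08%). The RefSeq table matched 7 of the 10 members (Igf2, Dlk1, Meg3, Peg3, Plagl1, Grb10 and Mest), and of their windows only Peg3's held a match, beginning 201 bases before the start. A match is a description of letters, not of binding. The full 300-base windows at the starts of the lines shown hold 13 CpG sites each, counted over more than the 250 bases printed. The median over all windows was 7, with 45 in a Grb10 window, 26 in that of Plagl1 and 1 in another Meg3 window.

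The matrices held 90674425, 77677622, 38648331 and 50761353 unique molecular identifier (UMI) counts for E12.5, E17.5, untreated adults and irradiated adults, where 1 UMI stands for 1 captured RNA molecule. A cell was kept if it had 500 genes or more and no more than 20% of its UMIs from mitochondrial genes, and putative doublets were removed, leaving 4050, 4409, 3597 and 3031 cells with medians of 18081.5, 11003.0, 3607 and 8554 UMIs. Levels are given as CPM, counts per 1000000 UMIs summed over the cells of a class, with an exact Poisson 95% interval. Cells were clustered within each library and classes were named from marker genes, so that "enteroendocrine-like" and similar names rest on these markers. Among barcodes of all libraries, 46 of 22684 occurred in more than 1 library.

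The labels name epithelial cells, and at E17.5 the markers of other cells were also present. Clusters with markers of mesenchyme (119 cells, 7 of 7 markers at 50 CPM or more), smooth muscle (119 cells, 6 of 6) and mesothelium (22 cells, 5 of 5) held 260 cells, called stromal below. Pancreatic acinar-like (535 cells) and islet-like (140) clusters were also found. A cluster of 120 cells led by Spp1 and Neurog3 held 4 of 6 pancreatic progenitor markers but none among its 10 leading genes, and is called by its leading genes here. E12.5 had 145 pancreatic progenitor-like cells (5 of 6 markers). Stromal cells, pancreatic cells and the Spp1- and Neurog3-led cluster were kept apart, leaving 3905, 3354, 3597 and 3031 cells for the 4 epithelial comparisons. Unnamed clusters held 756 cells at E12.5 and 263 in the irradiated adult and are counted with the epithelial cells. At E12.5 they include a cluster of 53 cells with Acta2, Col3a1 and Col1a1 among its leading genes. It scored 0.78 for endothelial and 0.47 for epithelial markers. Dlk1 was 243 and Mest 288 CPM in it, and its cells are part of the E12.5 epithelial values below. At E12.5, where the gut holds few mature cell types, most cells (3138) were named only epithelial-like.

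In epithelial cells at E12.5, Peg3, H19, Meg3, Cdkn1c and Grb10 were the abundant members. Peg3 stood at 930.1 CPM, H19 at 717, Meg3 at 571, Cdkn1c at 368 and Grb10 at 291 CPM. The other 5 members were far lower as counted, Dlk1 at 22.9, Plagl1 at 16.7, Igf2 at 10.2, Mest at 7.99 and Peg10 at 2.83 CPM. Igf2 shares most of its last exonic bases with a same-strand gene model, so its value is uncertain. The pancreatic progenitor-like cells of E12.5 had more Dlk1 (651 CPM) and Mest (285 CPM), along with Meg3 at 2259 CPM and Peg3 at 1834 CPM. In 11 enteroendocrine-like cells of E12.5, Peg10 reached 931 CPM, and Meg3 and Peg3 stood at 2663 and 2588 CPM. The leading genes of these 11 cells included Ins1 and Iapp, and they scored 0.47 for islet markers (0.74 for enteroendocrine). Whether they belong to gut or pancreas was not tested. Of 224 Peg10 UMIs in all epithelial cells of E12.5, 39 were in the non-endocrine cells.

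**Figure D1:**
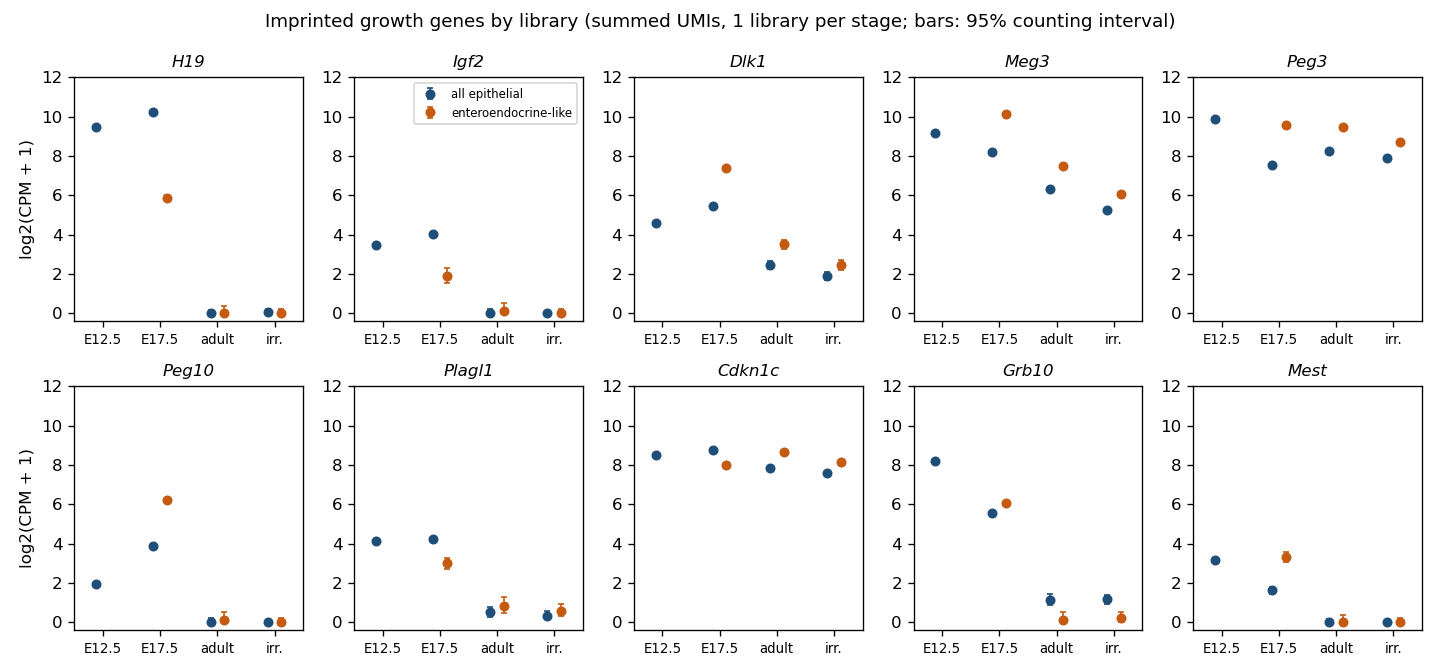
Levels of the 10 genes in epithelial cells of each library, and in enteroendocrine-like cells where there were at least 50, as log2(CPM + 1) of summed UMIs, with exact Poisson 95% intervals as bars. H19 is at 717 and 1200 CPM in the embryonic libraries and at 0 UMIs in the adult, whereas Peg3 and Cdkn1c stay above 180 CPM in all 4.

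Between E12.5 and E17.5 the members did not move as a group. H19 was 1200 CPM at E17.5 against 717 at E12.5, a log2 ratio of 0.74 (95% interval 0.73 to 0.76), where ratios are taken of CPM + 1 and intervals of the ratio itself. Peg3 was 185 against 930.1 CPM (log2 ratio -2.33, interval -2.36 to -2.30), Grb10 46.8 against 291 CPM (-2.61) and Mest 2.09 against 7.99 CPM (-1.54). Calling a gene at a 2-fold difference with at least 10 UMIs on either side, 3 of 10 members were lower at E17.5, where 15.0% of 16623 genes were lower, and 1 (Peg10, 13.8 against 2.83 CPM) was higher, where 13.3% were. Dlk1 (42.97 against 22.87 CPM), Igf2 (15.6 against 10.2), Plagl1 (17.9 against 16.7), Cdkn1c (434 against 368) and Meg3 (294 against 571) were within 2-fold. The median log2 ratio was 0.17 over the members and -0.16 over all genes tested, and edgeR's TMM scaling moved the latter by 0.14. Without 2 enteroendocrine-like clusters of E17.5 that also scored for islet markers, Peg10's log2 ratio was 1.04 and Meg3 was lower by 2-fold (-1.19), making 4 lower.

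Cell types differed between those libraries: enteroendocrine-like cells were 1464 of the epithelial cells at E17.5 and 11 at E12.5. Leaving them out of both, a comparison added after the data were seen, gave lower values at E17.5 for Peg3 (54.8 against 926 CPM, log2 ratio -4.06), Meg3 (109 against 565 CPM, -2.36), Grb10 (42.5 against 291 CPM, -2.75) and Mest (0.54 against 7.85 CPM, -2.52). In these non-endocrine cells 4 of 10 members were lower, against 18.6% of 16182 genes, and H19 alone was higher (1456 against 718 CPM, 1.02), against 10.9%. H19 lies at the 2-fold line, with log2 ratios of 0.99 under a stricter cell filter and without the enterocyte-like cluster of fewest UMIs. Peg10, the member higher over all epithelial cells, was 0.70 against 0.49 CPM in these cells. The TMM shift of the all-gene median was 0.21 here. Cdkn1c (474 against 368 CPM, 0.36) differed little.

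Among the epithelial classes of E17.5, H19, Cdkn1c and Igf2 were highest in the enterocyte-like cells, the absorptive cells of the villus. H19 stood at 3237 CPM in 556 enterocyte-like cells, 915 in 171 goblet-like cells, 790 in 1163 less differentiated epithelial-like cells and 58.2 in 1464 enteroendocrine-like cells. Thinned to 2000 UMIs a cell, 97.1% of enterocyte-like and 9.19% of enteroendocrine-like cells had an H19 UMI. The lowest such share at E17.5 was 3.65%, in islet-like cells, whose median was 10510.5 UMIs against 25226.5 in enterocyte-like cells. Cdkn1c followed with 1187, 277, 204 and 259 CPM in these classes. Igf2 reached 43.7 CPM in enterocyte-like cells and 2.78 in enteroendocrine-like cells, and reads of Igf2 share most of their last exonic bases (497 of 500) with Gm49394, a same-strand gene model, so that its level is uncertain.

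Free RNA from stromal cells was gauged by collagen genes. Free RNA from other cells, such as the enterocyte-like cells with the most H19 among epithelial classes, was not measured. Collagen UMIs stood at 9420 CPM in mesenchymal-like cells and at 1.21 CPM in enterocyte-like cells, and there were 2680 H19 and 983 Cdkn1c UMIs for each collagen UMI in the latter, against 0.0638 and 0.386 in the former. Meg3 gave 145 UMIs a collagen UMI in enteroendocrine-like cells against 0.23 in mesenchymal-like cells. For Dlk1 the ratio was 21.2 in enteroendocrine-like and 330 in islet-like cells, against 0.419 in mesenchymal-like cells.

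Within the E17.5 epithelium the level of H19 was ordered much as that of Apoa4, an apolipoprotein of mature enterocytes. In 3 clusters led by Olfm4, a crypt gene, H19 was 374, 456 and 603 CPM and Apoa4 between 13.6 and 30.6 CPM. H19 was 1039 CPM in a cluster with Apoa4 at 118 CPM, 2175 CPM with Apoa4 at 601 CPM, and 3806 CPM with Apoa4 at 3051 CPM. Another cluster departed from this order, with H19 at 1678 CPM and Apoa4 at 93.8 CPM. Cdkn1c in the same clusters was 153, 88.2 and 120 CPM in the Olfm4-led ones, then 195, 561 and 1619 CPM. The highest H19 of all, 12410 CPM (interval 11840 to 13000), with Igf2 at 498 CPM, was in 86 enterocyte-like cells with a median of 1585.5 UMIs and Apoa4 at 32510 CPM, and the part of that low depth in the value was not tested. The clusters were made from all genes, H19 included, so these levels are a description.

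**Figure D2:**
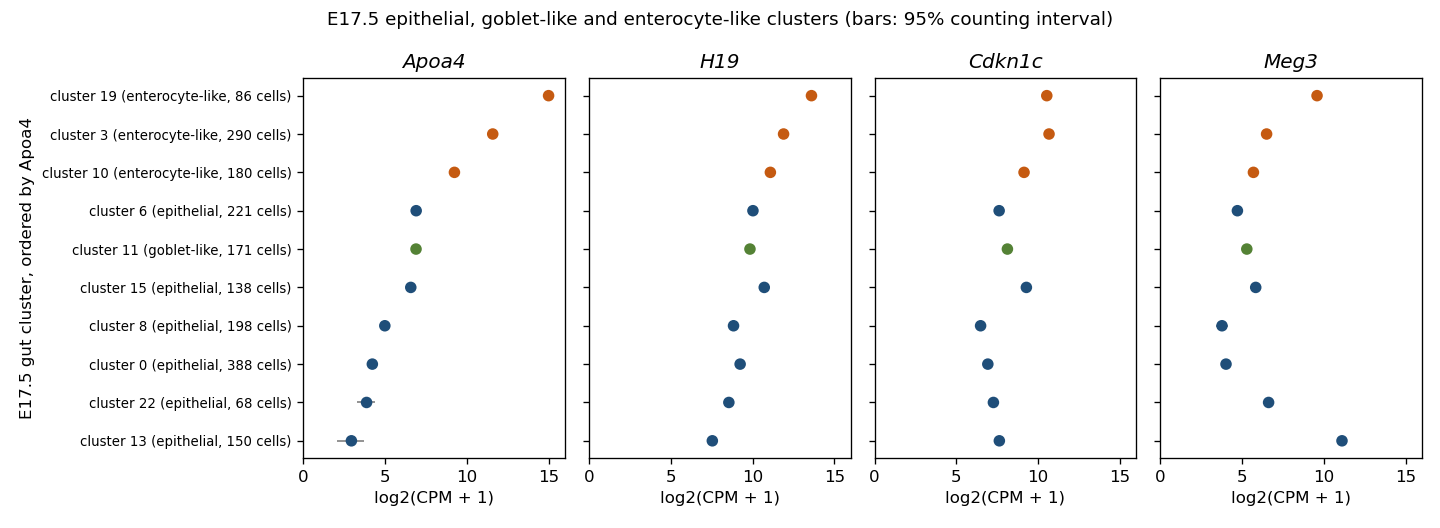
Levels of Apoa4, H19, Cdkn1c and Meg3 as log2(CPM + 1) in the epithelial, goblet-like and enterocyte-like clusters of E17.5, 1 row a cluster in the order of Apoa4, with exact Poisson 95% intervals. H19 lies between 374 and 603 CPM in the Olfm4-led clusters and at 12410 CPM in the cluster with most Apoa4.

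A cluster of 150 E17.5 cells with a median of 8202 UMIs had the opposite profile. Its leading genes included Akr1b7, S100a14 and Tff2, and it held H19 at 185 CPM, Meg3 at 2209, Peg3 at 1014, Dlk1 at 453 and Grb10 at 264 CPM. It was counted among the epithelial-like cells, where Meg3 stood at 133 CPM in all and at 12.7 to 97.7 CPM in the other clusters. Of the E17.5 non-endocrine cells compared with E12.5 above, it held 3317 of 5428 Meg3, 1523 of 2721 Peg3 and 680 of 789 Dlk1 UMIs. Most of those E17.5 levels thus came from this cluster.

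Enteroendocrine-like cells, the hormone-producing cells of the gut, carried Meg3, Peg3 and Dlk1 at E17.5. Meg3 was 1117 CPM in them against 81.3 in enterocyte-like cells, and Peg3 was 765 against 15.6 CPM. Cells were grouped by the hormone gene with the most UMIs, and 9 groups (Sst, Gip, Ghrl, Gcg, Cck, Nts, Pyy, Sct and Tac1) had 30 cells or more. Meg3 ran from 477 CPM in 74 Nts-dominant cells to 2166 in 93 Sst-dominant cells, with 1565 in 91 Gip-dominant, 1060 in 188 Cck-dominant and 834 in 542 Sct-dominant cells. Dlk1 was 369 CPM in Sst-dominant and 131 in Gip-dominant cells. Peg10 was at 313 CPM in Pyy-dominant, 253 in Gcg-dominant and 160 in Gip-dominant cells, and at 1.51 in Nts-dominant cells. By cluster, Peg10 was 474 CPM in 99 cells led by Gcg, Ppy, Gast and Pyy, which scored 0.64 for islet markers (0.77 for enteroendocrine), and 51.3 CPM in another Gcg-led cluster of 210 cells. Peg3 spread less, from 397 CPM in Gip-dominant to 1128 CPM in Pyy-dominant cells. Cdkn1c was highest in the Gip-dominant cells (561 CPM) and lowest in the Pyy-dominant cells (56.5 CPM). Sst and Pyy led a cluster of 167 cells that scored 0.55 for islet markers (0.83 for enteroendocrine). It had Meg3 at 2247, Dlk1 at 342, Peg3 at 1217 and Cdkn1c at 79.4 CPM. Another Sst-led cluster, of 102 cells, had Meg3 at 1651, Dlk1 at 136, Peg3 at 624 and Cdkn1c at 219 CPM. The part of islet-like cells in the levels of the hormone groups was not tested.

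Neurog3, the transcription factor that starts endocrine development, was used to pick out cells that may be early in it. Among enteroendocrine-like cells of E17.5 thinned to 2000 UMIs, 29 had a Neurog3 UMI and 1396 had none. The Spp1- and Neurog3-led cluster of 120 cells is not in this class and was left out (Cdkn1c 440 CPM, Grb10 213 CPM). Cdkn1c was 573 CPM (interval 470.2 to 691) in the former against 253 (244 to 263) in the latter, and Grb10 was 194 against 64.3 CPM. Peg3 was 1051 against 759 CPM, Meg3 877 against 1106, and Dlk1 78.8 against 165 CPM. Peg10 had 0 UMIs in the 29 cells, which allows up to 15.8 CPM, against 73.8 CPM. Chga, an enteroendocrine marker, did not set the 29 cells apart, at 2742 against 2607 CPM with overlapping intervals.

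In E17.5 stromal cells, 7 of the 10 members were at least 2-fold higher than in the epithelium, against 18.1% of 15568 genes. Mest stood at 382 against 2.09 CPM (log2 ratio 6.96), Dlk1 at 2543 against 42.97 CPM (5.86), Plagl1 at 336 against 17.9 CPM (4.15), Grb10 at 293 against 46.8 CPM (2.62), Cdkn1c at 2620 against 434 CPM (2.59) and Meg3 at 1671 against 294 CPM (2.50). Peg3 (372 against 185 CPM, 1.00, interval 0.89 to 1.12) lay at the line, and its log2 ratio was 0.83 under TMM scaling and -0.12 when each cell's CPM was averaged. H19 was lower, 665 against 1200 CPM (-0.85), and Igf2 and Peg10 were within 2-fold. The median over the members was 2.55 and over all genes -0.05, with a TMM shift of -0.15. Without the 2 islet-scored enteroendocrine-like clusters, 8 members were higher, Peg10 with them (1.75), and with the Spp1- and Neurog3-led cluster in the epithelium 6 were, without Peg3 (0.95). Within stroma, mesenchymal-like cells had 3948 CPM of Dlk1 and 717 of Mest, smooth muscle-like cells 1226 of Dlk1, and mesothelial-like cells the most H19 (1461 CPM) and Plagl1 (528 CPM). Clusters within these classes differed. Dlk1 was 5772 and 870 CPM in mesenchymal-like clusters of 72 and 47 cells, and 2036 and 88.65 CPM in smooth muscle-like clusters of 74 and 45. The cluster of 45 had Cdkn1c at 391, Meg3 at 299, Peg3 at 83.1 and Mest at 8.31 CPM, so not every stromal cluster was high.

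Pancreatic cells of E17.5 differed by lineage. Acinar-like cells, which make digestive enzymes, had H19 at 917 CPM, Meg3 at 449 and Dlk1 at 244 CPM, with Igf2 at only 1.58 CPM. Islet-like cells, led by insulin genes, had H19 at 14.1 CPM but Meg3 at 1784, Dlk1 at 1324 and Peg3 at 492 CPM, and their Cdkn1c was 44.9 CPM. The Spp1- and Neurog3-led cluster, whose lineage was left unnamed, had Meg3 at 1192, Peg3 at 535, Cdkn1c at 440 and Grb10 at 213 CPM. H19 was lowest in the islet-like cells, where Meg3 was highest, and both were present in acinar-like cells.

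**Figure D3:**
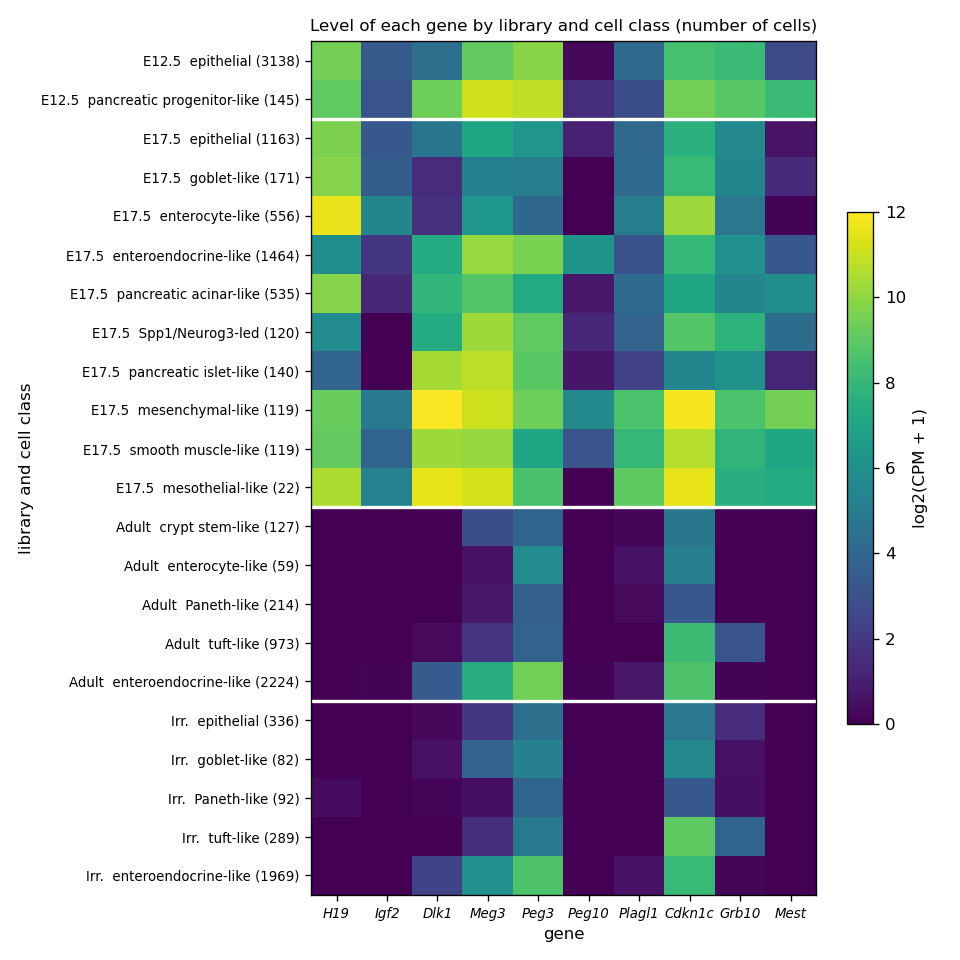
Levels of the 10 genes in classes of each library and in the Spp1- and Neurog3-led cluster, coloured by log2(CPM + 1), with 1 column a gene and 1 row a class. Stromal and islet-like rows are high for Dlk1 and Meg3, the enterocyte-like row of E17.5 for H19 (3237 CPM), and the untreated adult rows are at 0 for H19 and Mest.

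Adult epithelial cells held little of most members. Of the 10, 8 were lower by 2-fold or more than at E17.5, where 12.3% of 15887 genes were lower, and none was higher, where 12.9% were. H19 had 0 UMIs in 3597 adult cells against 72976 at E17.5, so it was at least 11900-fold lower, taking 3 UMIs as the limit that a count of 0 allows. Mest, also at 0, was at least 20.7-fold lower, and Igf2 and Peg10 had 1 UMI each (log2 intervals of the ratio -14.16 to -6.38 and -13.99 to -6.21). Grb10 was 1.24 against 46.8 CPM, Plagl1 0.44 against 17.9, Dlk1 4.50 against 42.97, and Meg3 78.5 against 294 CPM (log2 ratio -1.89). Cdkn1c (228 against 434 CPM, -0.93) and Peg3 (309 against 185 CPM, 0.74) were within 2-fold. The median log2 ratio was -3.36 over the members, -3.78 with members at 0 placed at their limit, and -0.05 over all genes. Without the 2 islet-scored clusters of E17.5, Mest was within 2-fold (-0.79) and 7 members were lower.

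The adult sort held more enteroendocrine-like cells (2224) and tuft-like cells (973) than other types, so this class was also compared with itself. In enteroendocrine-like cells, 8 members, all but Peg3 and Cdkn1c, were lower in the adult, against 10.2% of 14143 genes, and none was higher, against 11.5%. Peg3 was 696 against 765 CPM (log2 ratio -0.14, interval -0.18 to -0.09) and Cdkn1c 405 against 259 CPM (0.65, 0.58 to 0.71). Meg3 was 179 against 1117 CPM (-2.64), Dlk1 10.4 against 164 CPM (-3.85) and Plagl1 0.78 against 7.01 CPM (-2.17). Igf2, Grb10 and Peg10 had 1 UMI each in the adult, against 31, 739 and 806 at E17.5 (log2 intervals -10.50 to -2.57, -15.03 to -7.25 and -15.16 to -7.37). H19 was at least 248-fold and Mest at least 38.2-fold lower. The median was -2.98 over the members, -3.25 with those at 0 at their limit, and 0.05 over all genes. With a pseudocount of 10 CPM the count was 5. Islet markers differed along with these levels: summed, they were at 3098 CPM in E17.5 and 904 in adult enteroendocrine-like cells, and Ins2 was at 193 CPM against 0. Without the 2 islet-scored clusters of E17.5 (266 cells), an alternative added after the data were seen, 8 members were again lower, among them Meg3 (-2.46), Dlk1 (-3.65), Peg10 (-5.22) and Mest (-1.43), with Peg3 at 0.01 and Cdkn1c at 0.47.

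Tuft-like cells, rare chemosensory cells, held Cdkn1c and almost no other member in the adult. Cdkn1c was 294 CPM, with a UMI in 37.2% of thinned cells against 1.40% of Paneth-like cells (medians of 4111.0 and 2930.0 UMIs), and Peg3 was 13.03 and Grb10 7.82 CPM. That Grb10 level was higher than in adult enteroendocrine-like cells, where 1 UMI was counted. In the irradiated adult, tuft-like cells had Cdkn1c at 516 CPM (interval 481 to 553) and Grb10 at 13.5 CPM. Adult enteroendocrine-like cells had more Cdkn1c (405 CPM). The other named adult classes had less, with 34.6 CPM in 59 enterocyte-like, 24.8 in 127 crypt stem-like and 8.94 in 214 Paneth-like cells.

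**Figure D4:**
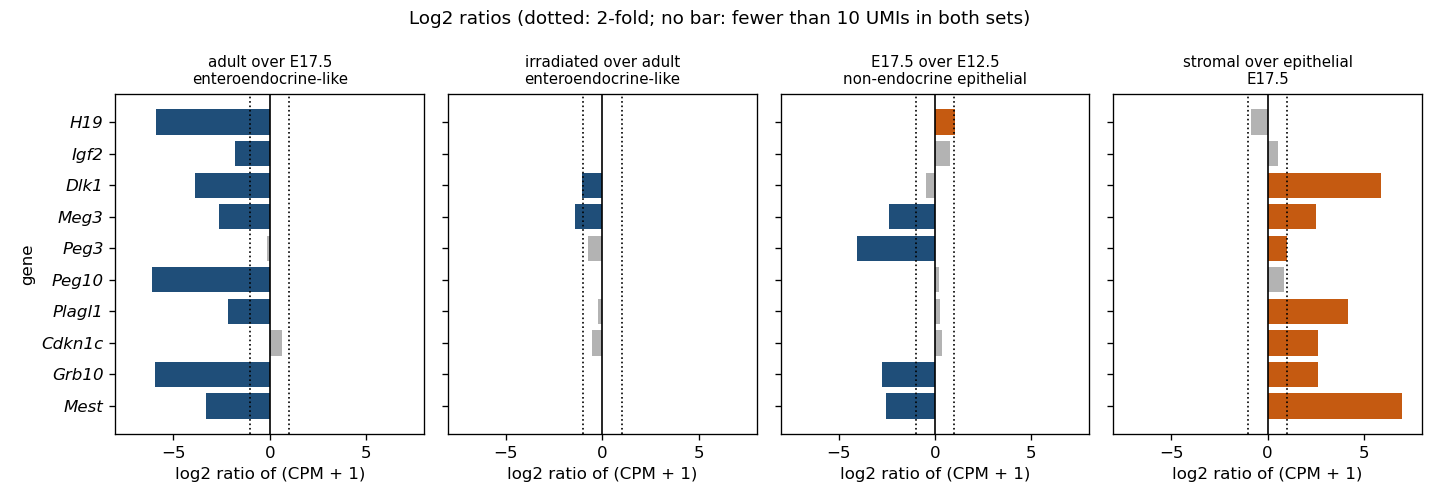
Log2 ratios of CPM + 1 for each gene in 4 comparisons; dotted lines mark 2-fold, coloured bars are past it, and genes with fewer than 10 UMIs in both sets have no bar. In adult over E17.5 enteroendocrine-like cells 8 bars point to lower levels and Peg3 and Cdkn1c stay within 2-fold, whereas 7 bars point to higher levels in stroma.

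Adult Meg3 and Dlk1 were limited to some hormone groups. Meg3 was 471 CPM in 128 Sst-dominant and 414 in 1063 Gip-dominant cells, but 8.36 in 751 Sct-dominant cells, 1 UMI (0.52 CPM) in 139 Cck-dominant cells and 0 in 72 Nts-dominant cells. At E17.5 the same 5 hormone groups had 477 CPM or more. Dlk1 was 105 CPM in adult Sst-dominant cells and 4.27 in Gip-dominant cells. Peg3 was found in every group, from 508 CPM in Sst-dominant to 1282 in Nts-dominant cells. Cdkn1c was highest in Gip-dominant and lowest in Nts-dominant cells among these 5 groups, with 586 CPM in Gip-dominant cells, 384 in Cck-dominant, 286 in Sct-dominant, 206 in Sst-dominant and 40.3 in Nts-dominant cells.

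**Figure D5:**
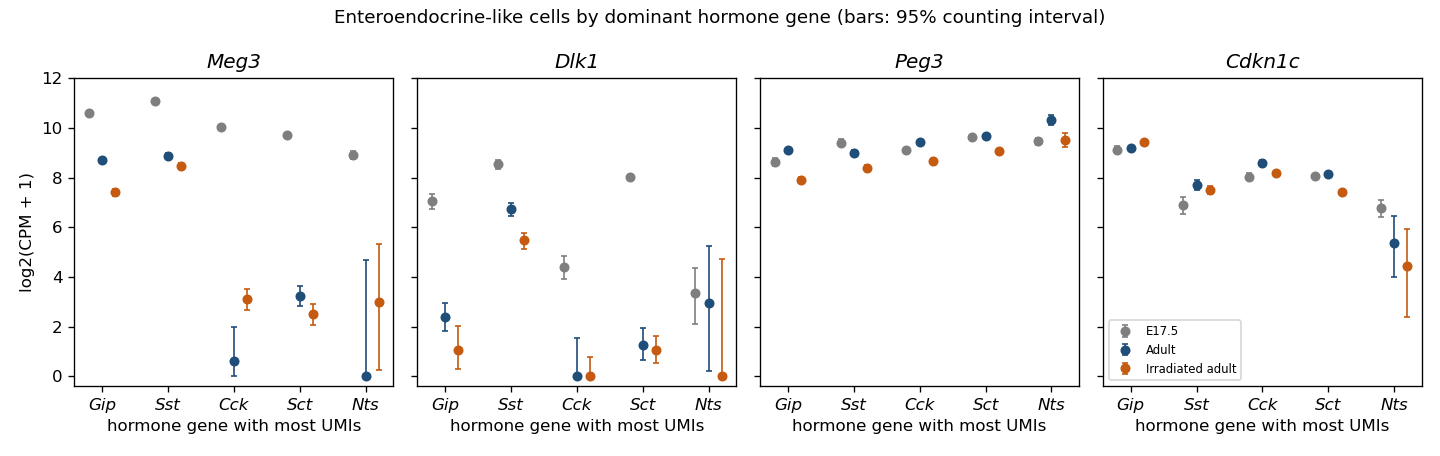
Levels of Meg3, Dlk1, Peg3 and Cdkn1c as log2(CPM + 1) in enteroendocrine-like cells grouped by the dominant hormone gene, for E17.5, adult and irradiated adult, with exact Poisson 95% intervals. Meg3 is above 400 CPM in every group shown at E17.5, and in the adult only in the Sst- and Gip-dominant groups.

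Irradiated adult cells had lower Meg3. Over epithelial cells it was 37.4 CPM against 78.5 in the adult (log2 ratio -1.05, interval -1.17 to -0.98), the only 1 of 6 members tested that was lower by 2-fold, against 4.78% of 15157 genes, and none was higher, against 2.59%. In enteroendocrine-like cells Meg3 was 66.3 against 179 CPM (-1.42, interval -1.53 to -1.33) and Dlk1 4.57 against 10.4 CPM (-1.04, interval -1.59 to -0.79). These were 2 of 5 members tested, against 2.89% of 14065 genes, and none was higher, against 1.45%. Peg3 (413 against 696 CPM, -0.75) and Cdkn1c (282 against 405 CPM, -0.52) were lower within 2-fold, and the medians were -0.75 over the members and 0.04 over all genes. Both calls lay near the line: Meg3 over epithelial cells was -0.99 (just short of 2-fold) under TMM scaling, and Dlk1 was -0.49 when each cell's CPM was averaged. H19 was counted as 2 UMIs in the irradiated adult, both in Paneth-like cells. Over epithelial cells Grb10 was 1.26 against 1.24 CPM and Plagl1 0.26 against 0.44 CPM, with overlapping intervals, and Igf2, Peg10 and Mest had 0 UMIs after irradiation.

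Hormone groups and depth differed between the adult libraries along with Meg3. Gip-dominant cells, which held 1742 of 2284 Meg3 UMIs in the adult class and 479 of 1291 in the irradiated one, were 47.8% of adult and 23.4% of irradiated enteroendocrine-like cells. Within Gip-dominant cells Meg3 was 168 against 414 CPM, and within Sst-dominant cells 351 against 471 CPM. In Cck-dominant cells the order was the other way, 7.58 CPM against 1 UMI (0.52 CPM). In each library 2 clusters had Gip among their leading genes, and the one with fewer UMIs a cell had more Meg3: 624 CPM at a median of 2323 UMIs and 178 CPM at 13509 in the adult, and 245 CPM at 2617.5 and 138 CPM at 13796.5 in the irradiated adult. Peg3 had the same order, 854 and 232 CPM in the adult, 431 and 145 CPM in the irradiated adult. Meg3 was lower in the irradiated adult in both clusters, by different amounts, and the part of low-UMI cells in the difference was not tested.

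Cdkn1c, whose protein halts the cell cycle, was compared between cells with at least 3 UMIs of 15 G2/M genes, called cycling, and the others, after thinning to 2000 UMIs. It was lower in the cycling cells in 8 of 10 classes with enough of both, and past 2-fold in 1 of them. In enterocyte-like cells of E17.5 it was 787 against 1323 CPM (log2 ratio -0.75), in goblet-like cells 223 against 422 (-0.92), in acinar-like cells 102 against 158 (-0.62), and in epithelial-like cells of E12.5 345 against 416 (-0.27). Other members were also lower in the cycling enterocyte-like cells, Igf2 by a log2 ratio of -0.72, Meg3 of -0.69 and H19 of -0.34. That class joins a cluster with much Mki67, a proliferation gene (123 CPM, with Cdkn1c at 561), and one with little (24.2 CPM, with Cdkn1c at 1619). Within the former, Cdkn1c was 553 CPM in 76 cycling cells (interval 524.5 to 583) and 568 in 98 others (540.4 to 596). Adult crypt stem-like cells had 16.1 against 38.8 CPM (-1.22). Levels were higher in cycling cells of the Spp1- and Neurog3-led cluster (482 against 412 CPM, 0.22) and in irradiated epithelial-like cells (23.0 against 21.5 CPM, 0.09).

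Neighbouring imprinted genes did not all follow the members. Of 26 listed neighbours of the members' domains, 22 were tested between E12.5 and E17.5 epithelium, 6 higher (13.3% of all genes were) and 5 lower (15.0% were) at E17.5. Usp29, which shares a promoter region with Peg3, was 6.12 against 32.2 CPM, and Dio3, at the far end of the Dlk1 and Meg3 domain, 0.77 against 19.4 CPM. Kcnq1, a potassium channel gene beside Cdkn1c, was 12.9 against 0.08 CPM (787 against 6 UMIs). In adult enteroendocrine-like cells, 3 of 21 were higher (11.5% of all genes) and 6 lower (10.2%) than at E17.5, among the latter Kcnq1ot1, the noncoding RNA of the Cdkn1c domain, at 10.6 against 232 CPM. Sgce, which lies beside Peg10 in the opposite direction, was 0.23 (3 UMIs) against 15.5 CPM (log2 ratio -3.74, interval of the ratio -8.34 to -4.48). In irradiated enteroendocrine-like cells 1 of 18 was lower (2.89% of all genes), Kcnq1ot1 (3.13 against 10.6 CPM, -1.49).

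Imprinted genes of other loci were examined in the same comparisons. Between E12.5 and E17.5 epithelium 7 of 23 tested were lower at E17.5 (15.0% of all genes) and 3 higher (13.3%). In non-endocrine cells 11 of 22 were lower (18.6% of all genes) and none higher (10.9%). In adult epithelium 3 of 22 were lower than at E17.5 (12.3% of all genes) and 2 higher (12.9%). Of 25 listed, 22 were tested in enteroendocrine-like cells, 8 lower (10.2% of all genes) and 1 higher (11.5%) in the adult than at E17.5. Ndn, which encodes a growth-restraining protein of neurons, had 0 UMIs against 68.4 CPM, Nnat, a small membrane protein gene, was 63.95 against 534 CPM, and Zdbf2 5.56 against 116 CPM. Nnat was also a leading gene of the E17.5 islet-like cluster. Values of these genes without the 2 islet-scored enteroendocrine-like clusters were not examined. Between irradiated and untreated adult enteroendocrine-like cells, 3 of 21 were lower (2.89% of all genes) and none higher (1.45%), with Nnat at 8.93 against 63.95 CPM (-2.71), Zdbf2 at -1.40 and Gatm, a creatine synthesis gene, at -1.27. Dcn, a matrix proteoglycan gene, was 1492 CPM in stroma against 0.33 in the epithelium of E17.5, where 8 of 22 were higher in stroma (18.1% of all genes) and 2 lower (17.7%).

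Genes of IGF signalling are where Igf2 and Grb10 act. In E17.5 against E12.5 epithelium 3 of 19 tested were higher (13.3% of all genes) and 7 lower (15.0%), and Igfbp2, a secreted IGF carrier, was 3.09 against 177 CPM (log2 ratio -5.45). Igf2bp1, an RNA-binding protein gene active in fetal growth, was 42.3 against 280.0 CPM. In adult epithelium 6 of 17 were lower (12.3% of all genes) and none higher (12.9%) than at E17.5, with Igf2bp1 at 0.17 and Igf2bp3 at 2.32 CPM (-5.21 and -4.91). Igf1, the related growth factor, was 225 CPM in E17.5 stroma and 0.54 in epithelium, where 8 of 18 were higher in stroma (18.1% of all genes) and 1 lower (17.7%). In irradiated enteroendocrine-like cells Igfbp4 was 67.4 against 23.9 CPM, Pappa2, a protease of IGF carriers, 5.65 against 0.39, and Igf1r, the receptor, 3.90 against 10.6 CPM, 2 of 15 being higher (1.45% of all genes) and 1 lower (2.89%).

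Other inhibitors of cyclin-dependent kinases were listed beside Cdkn1c. None of 4 passed 2-fold between E12.5 and E17.5 epithelium, where 13.3% of all genes were higher and 15.0% lower at E17.5. In adult epithelium Cdkn1b was 65.2 against 23.1 CPM and Cdkn2c 6.01 against 1.43. These were 2 of 4 higher (12.9% of all genes), and none was lower (12.3%). In enteroendocrine-like cells 1 of 4 was higher in the adult (11.5% of all genes), Cdkn2c (1.96 against 0.09 CPM, 1.44). Lower was 1 (10.2% of all genes), Cdkn2d (23.4 against 70.2 CPM, -1.54), and Cdkn1b was 91.1 against 48.6 CPM (0.89). Cdkn1a, a gene of the DNA damage response, was 870 CPM in irradiated against 371 in untreated adult epithelium (log2 ratio 1.23). It was the 1 of 4 higher there (2.59% of all genes). Cdkn2c was the 1 lower (1.83 against 6.01 CPM, -1.31), where 4.78% of all genes were. In stroma Cdkn1a was 18.8 against 233 CPM, opposite to Cdkn1c.

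Genes that keep imprints during embryonic DNA replication were listed too. Of 7 tested, 5 were lower at E17.5 than at E12.5 in epithelium (15.0% of all genes) and none higher (13.3%), with Zfp57, the zinc finger protein that recognises methylated imprints, at 0.48 against 9.76 CPM (-2.87), and its cofactor Trim28 at 79.9 against 269 CPM (-1.74). Uhrf1, which guides DNA methylation after replication, was 49.6 against 113 CPM (-1.17). In non-endocrine cells 2 of 7 were lower (18.6% of all genes), Zfp57 (0.42 against 9.79 CPM, -2.92) and Trim28 (83.9 against 269 CPM, -1.67), and Uhrf1 was 60.3 against 113 CPM (-0.90). Zfp57 was 33.2 CPM in E17.5 stroma. In adult epithelium 2 of 7 were lower than at E17.5 (12.3% of all genes) and none higher (12.9%). They were Uhrf1 (13.7 against 49.6 CPM) and Dnmt1 (27.4 against 57.6 CPM). In enteroendocrine-like cells none of 6 passed 2-fold, where 10.2% of all genes were lower and 11.5% higher in the adult. Uhrf1 was 1.02 against 1.98 CPM in those cells (-0.56).

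The genes most like each member over 21 classes with enough cells were found among 6763 genes by Pearson's r of log2(CPM + 1); the classes share libraries and depth, so these are descriptions. For Cdkn1c they were Igf2r (0.90), Ccnd3 (0.87) and Slf2 (0.85). For Meg3 they were Nrep (0.98), Glt8d1 (0.95) and Ptov1 (0.95), and for Igf2, Dab2 (0.97), Igf2os (0.89) and Renbp (0.86). Among the members, Meg3 and Dlk1 (r 0.92), Igf2 and H19 (0.89) and Plagl1 and H19 (0.87) were most alike. Named after their values were seen, Usp29 came first for Peg3 (0.92) and Gpc3, a glypican of growth control, for H19 (0.96).

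Some counts rest on shared sequence. Whether the counting used strand is not given in the sources used here. All of the last 500 exonic bases of Mest also lie in Copg2 on the opposite strand, a gene with 2183 UMIs at E12.5 and 520 in the adult, whereas Mest had 0 UMIs in the adult. In Meg3, 426 of the last 500 bases overlap Gm26906 on the opposite strand (10 UMIs at E12.5, 3 at E17.5). Over all kept cells Gm49394 had 2 UMIs at E12.5 and 6 at E17.5, against 827 and 1000 for Igf2. How reads in the shared bases were assigned is not given in the sources used here. A low Gm49394 count thus does not show that Igf2 was fully counted.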

How the data were processed

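Single-cell libraries were made with the 10x Genomics 3' version 3 chemistry and sequenced on an Illumina HiSeq, per the labels' protocols. UMI counts per gene and cell barcode were deposited by the authors, from Cell Ranger 3.1.0 and mm10 per the submitters' processing notes, with 1 library in each of 4 groups. Whether counting used strand is not given in the sources used here.

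Barcodes with 500 genes or more and up to 20% of UMIs from mitochondrial genes entered. Doublets were scored by Scrublet in scanpy 1.11.5, removing 0.8% of cells per 1000 barcodes by score (176, 193, 191 and 153 cells). Cells were clustered with Leiden (leidenalg 0.10.2, resolution 1) and named by marker lists, with a naming rule set after the clusters were seen. The members, lists and markers were chosen with earlier results of these data known. UMIs were summed per class and given as CPM, and ratios used a pseudocount of 1 CPM. A gene was called at 2-fold with at least 10 UMIs on either side, since no replicate allows a test. Intervals are exact Poisson or Clopper-Pearson at 95% (scipy 1.17.1), and the limit for a count of 0 is 3 UMIs. They cover counting error only. Named list genes were the up to 3 highest and 3 lowest ratios per list, given here in part. TMM factors came from edgeR 4.0.16. The scripts were tested on simulated data. Alternatives included other filters, doublets kept, TMM, other pseudocounts and minima, other resolutions, and settings chosen after seeing the data (endocrine-like cells, unnamed, low-UMI, Tff2-led or islet-scored clusters left out, a Neurog3-led cluster counted as enteroendocrine-like, other hormone and G2/M minima).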

Additional observations from a re-analysis of the deposited data

Results flagged for a closer look

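Meg3 in the irradiated over the untreated adult had opposite directions in 2 hormone groups of enteroendocrine-like cells. In Gip-dominant cells it was 168 against 414 CPM, a log2 ratio of -1.29 (interval -1.44 to -1.15). In Cck-dominant cells it was 7.58 CPM (39 UMIs) against 0.52 CPM (1 UMI), a log2 ratio of 2.50 (interval of the ratio 1.30 to 9.21). Each direction rests on 1 library a group, and the difference between the hormone groups was not tested.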

How the results depend on the processing

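No paired analysis was possible because each group has 1 library. Of 164 counts of members under an alternative, 155 stayed within 1.5 times the value reported. The exceptions were these. For irradiated over adult epithelial cells, where 1 member (Meg3) was lower, the count was 0 with every deposited barcode, 0 with TMM factors, 0 with a pseudocount of 10 CPM and 2 under the stricter cell filter. For adult over E17.5 enteroendocrine-like cells the count of 8 became 5 with a pseudocount of 10 CPM. For irradiated over adult enteroendocrine-like cells the count of 2 became 1 with doublets kept, 1 with CPM averaged over cells and 1 with a pseudocount of 10 CPM. In adult tuft-like cells, 1 member was at 50 CPM or more, and 2 with doublets kept. The one reversed ratio, of 920, was Peg3 in stromal over epithelial cells at E17.5 (-0.12 with CPM averaged over cells). A further 339 of the 920 ratios left the counting interval of the reported value, as did 148 of 690 CPM values. So did 135 of 210 shares of cells, taken at other thinning depths or without thinning. Counts of members were allowed a change of 1.5 times, and single values only their counting interval. The shares that moved thus cannot be compared between counts and single values. The causes of the shifts were not tested. Every deposited barcode could not be used for comparisons of classes, which only kept cells have. Low totals limit adult values: 3 UMIs stand for 0.101 CPM over all adult epithelial cells.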
